A study of Homo sapiens with 6 samples.

Results

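The BTG and TOB genes are a small family of antiproliferative genes, and BTG1, BTG2, BTG3, TOB1 and TOB2 were chosen here by symbol from the expression table. All 5 were found among its 25662 genes. Cells of the A375 line, an established human melanoma line with an activated BRAF kinase, were given 1 µM BMH-21 for 24 hours or the solvent DMSO alone as the control. The compound BMH-21 binds DNA by intercalation and inhibits RNA polymerase I, which transcribes ribosomal RNA. Each group has 3 libraries, called biological replicates by the submitters. The titles place the controls at 0 hours while the protocol describes DMSO-treated cells, so how long the controls were cultured is unclear. All libraries come from the same line grown in the same medium, and nothing more is given on how the cultures were split, so p-values measure the spread between these libraries. The question is how the level of each gene differs after BMH-21.

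Proteins of this family share an amino-terminal domain that binds CNOT7 and CNOT8, the CAF1 deadenylases of the CCR4-NOT complex, which shortens the poly(A) tails of mRNAs and so prepares them for decay. TOB1 and TOB2 also carry motifs that bind the poly(A)-binding protein PABPC1. The family is known for slowing entry into the cell cycle when overexpressed.

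Levels are TPM, a transcript abundance per effective length that is scaled to the same total in each library, so levels of different genes can be compared and each depends on the rest of its library. Read depth is unknown because TPM keeps no read totals. Of the 8 melanocyte and melanoma markers examined, SOX10, S100A1 and S100B were above 1 TPM in every library, whereas MLANA was at 0 in every library and TYR and DCT were near 0. MITF was at 0.979 to 1.82 TPM and PMEL at 0.600 to 1.81 TPM. Summed over these 8 markers the level was 1149 to 1228 TPM in BMH-21 libraries and 758 to 1033 TPM in control libraries, without overlap, and the part of this difference in the results was not tested. Summed over 9 markers of other cell types, the level was 4.52 to 6.23 TPM in BMH-21 libraries and 5.31 to 7.02 TPM in control libraries. The keratinocyte marker KRT14, at 2.70 to 5.21 TPM, was the highest of these 9 in every library. Control replicate 2 stood apart from the other libraries. Transcripts of the mitochondrial genome held 7.61% of its TPM, against 10.9% to 14.6% in the other libraries, and ribosomal protein transcripts 33.4%, against 23.7% to 27.8%.

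4 of the 5 members were higher after BMH-21 and the remaining member, BTG3, was not called. BTG2 changed most, with a mean TPM 5.28 times that of controls, followed by BTG1 at 2.39 times, TOB1 at 2.06 times and TOB2 at 1.44 times. Genes with a mean of at least 1 TPM over the 6 libraries were tested on the log2(TPM + 1) scale with limma. It fits a linear model per gene and draws the variance of each gene toward a trend over all genes. Genes were called at a Benjamini-Hochberg adjusted p under 0.05. All 5 members passed the filter. The calls cover 4 of the 5 members, all higher, while 36.2% of all 12481 tested genes were called, 23.3% as higher and 12.9% as lower. The libraries of the groups did not overlap for the same 4 members, against 52.3% of all tested genes, and every BMH-21 library was the higher in 35.0% of all tested genes. The TOB2 call was lost under 8 of 12 alternative settings, and the calls of BTG1, BTG2 and TOB1 were kept under all 12.

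**Figure D1:**
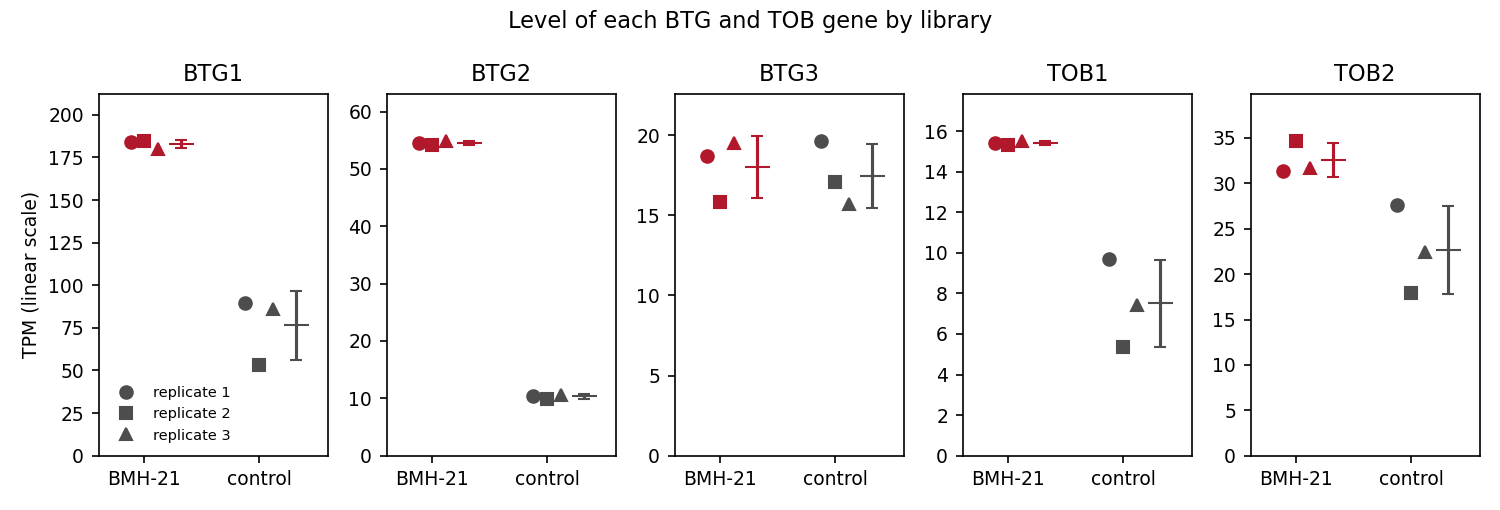
TPM of each BTG and TOB gene (linear axis from 0, a scale per panel) in the 3 BMH-21 libraries (red) and the 3 control libraries (grey), with the replicate number as the symbol and the group mean ± SD beside the points. BMH-21 libraries lie above all control libraries for BTG1, BTG2, TOB1 and TOB2, and the groups overlap for BTG3, while control replicate 2 is the lowest library for BTG1, BTG2, TOB1 and TOB2.

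The regions around the start sites of BTG2, BTG1 and BTG3 are shown because these genes span the response, the largest changes first and the member without a call last. Each is the 250 bases before and 50 bases after a start site (RefSeq, GRCh38.p14), written 5′ to 3′ on the gene's own strand. Capitals mark matches on either strand to 4 motifs, a match on the opposite strand being its reverse complement. They are the CCAAT box, the TATA box spelled TATAAA, the half-site of cyclic AMP response elements spelled TGACG, and the forkhead factor motif spelled GTAAACA.
BTG2 (chr1:203305269-203305568, plus strand): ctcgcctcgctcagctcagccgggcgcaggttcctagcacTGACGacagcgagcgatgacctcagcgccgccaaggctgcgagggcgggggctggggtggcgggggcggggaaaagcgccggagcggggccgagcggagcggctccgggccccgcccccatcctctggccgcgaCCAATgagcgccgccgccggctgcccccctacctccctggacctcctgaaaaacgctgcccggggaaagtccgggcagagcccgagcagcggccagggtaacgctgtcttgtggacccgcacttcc
BTG1 (chr12:92145797-92146096, minus strand): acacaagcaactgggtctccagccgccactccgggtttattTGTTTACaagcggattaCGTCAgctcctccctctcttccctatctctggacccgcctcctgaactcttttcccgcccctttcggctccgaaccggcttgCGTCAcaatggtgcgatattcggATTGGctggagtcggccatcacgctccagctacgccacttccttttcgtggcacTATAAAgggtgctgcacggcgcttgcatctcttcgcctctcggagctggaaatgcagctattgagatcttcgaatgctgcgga
BTG3 (chr21:17612852-17613151, minus strand): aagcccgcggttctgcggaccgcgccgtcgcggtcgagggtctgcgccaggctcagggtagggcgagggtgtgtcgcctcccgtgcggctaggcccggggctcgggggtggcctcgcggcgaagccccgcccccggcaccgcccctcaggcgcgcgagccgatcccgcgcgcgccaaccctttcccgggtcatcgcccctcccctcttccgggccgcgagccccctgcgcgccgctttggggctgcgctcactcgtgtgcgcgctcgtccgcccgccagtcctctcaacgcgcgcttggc
The BTG2 window held the CCAAT box 76 bases before the start and the cyclic AMP half-site 210 bases before it. The BTG1 window held the TATA box 33 bases before the start. On the opposite strand it held the CCAAT box 87 bases before the start, the cyclic AMP half-site 110 and 192 bases before it, and the forkhead motif 209 bases before it. The BTG3 window held none of these 4 motifs, and neither did the window of TOB2, a member called as higher. A TOB1 window held the CCAAT box and the cyclic AMP half-site, and a further TOB1 window held none of the 4. Among 35116 such windows of 27305 genes, 34.6% held the CCAAT box, 24.6% the cyclic AMP half-site, 11.5% the TATA box and 3.42% the forkhead motif on either strand. GGGCGG, a GC box, was found in a window of each of the 5 members, though not in the further TOB1 window, and in 45.0% of all windows. The members' windows with it held from 56% (BTG1) to 78.7% (TOB1) G or C, against a median of 58.7% over all windows. A match is a run of letters and not a measured binding site, and the absence of one covers this window alone.

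BTG2 (ENSG00000159388.5, GRCh38 chromosome 1, 203305491 to 203309602, plus strand) encodes an antiproliferative partner of the CAF1 deadenylases. It was at 54.5, 54.2 and 54.9 TPM in BMH-21 replicates 1 to 3, against 10.5, 9.86 and 10.6 TPM in control replicates 1 to 3. The groups were far apart and the libraries within each group were close together. BTG2 rose by 2.29 ± 0.10 on the log2(TPM + 1) scale (SE, 95% confidence interval 2.07 to 2.52, limma adjusted p = 4.84e-06). This change was larger than that of 99.6% of tested genes and ranked 53 among them. The SD of BTG2 over the BMH-21 libraries, 0.0094 on the log2(TPM + 1) scale, was below that of all but 0.689% of tested genes, whose median was 0.118.

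BTG1 (ENSG00000133639.4, chromosome 12, 92140278 to 92145897, minus strand) is the closest relative of BTG2 and shares its partners. BTG1 was at 184, 185 and 180.2 TPM in the BMH-21 libraries, against 89.8, 53.2 and 86.1 TPM in control replicates 1 to 3. Every BMH-21 library was higher than every control, and control replicate 2 lay well below the other controls. BTG1 rose by 1.29 ± 0.18 on the log2(TPM + 1) scale (SE, interval 0.86 to 1.71, limma adjusted p = 0.00132), more than 97.6% of tested genes. Without control replicate 2 its log2 change was 1.05 (limma adjusted p = 0.000119).

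BTG1, BTG2, TOB1 and TOB2 each had their lowest TPM in control replicate 2. Control replicate 2 lay below the mean of the other controls by 0.71 for BTG1, 0.57 for TOB1 and 0.45 for TOB2 on the log2(TPM + 1) scale, against a median of 0.18 over all tested genes, and by 0.09 for BTG2 and 0.04 for BTG3. The ribosomal protein share of that library was the highest and its mitochondrial share the lowest of the 6. The part of these shares in the results was not tested. Divided by size factors from the median ratio over genes, BTG1 was at 169, 175 and 165 in BMH-21 libraries and at 90.2, 63.0 and 87.1 in controls, so the groups did not overlap on that scale either. BTG2 was then at 10.5, 11.7 and 10.8 in control replicates 1 to 3, so control replicate 2 was not its lowest library on that scale.

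TOB1 (ENSG00000141232.4, chromosome 17, 50862223 to 50867978, minus strand), first described as a partner of the receptor ERBB2, was at 15.4, 15.3 and 15.5 TPM in the BMH-21 libraries, against 9.71, 5.38 and 7.42 TPM in the controls. All BMH-21 libraries were above all controls, and the controls were spread more widely. TOB1 rose by 0.98 ± 0.19 (SE, interval 0.54 to 1.42, limma adjusted p = 0.00558) on the log2(TPM + 1) scale, and its change ranked 623 among tested genes. Without control replicate 2 the log2 change was 0.79 (limma adjusted p = 0.0042).

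TOB2 (ENSG00000183864.4, chromosome 22, 41433492 to 41447023, minus strand), the relative of TOB1, was at 31.3, 34.7 and 31.7 TPM in the BMH-21 libraries, against 27.6, 17.9 and 22.4 TPM in the controls. The groups did not overlap, but the lowest BMH-21 library and control replicate 1 differed by little. TOB2 rose by 0.53 ± 0.16 (SE, interval 0.17 to 0.88, limma adjusted p = 0.0311) on the log2(TPM + 1) scale, and 78.5% of tested genes had a lower change. The call was lost with median-of-ratios scaling (log2 change 0.34, limma adjusted p = 0.0705), without any single BMH-21 library and without control replicate 3 (adjusted p from 0.0755 to 0.0774).

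BTG3 (ENSG00000154640.14, chromosome 21, 17593653 to 17612947, minus strand), a member also known to bind the transcription factor E2F1 and the checkpoint kinase CHEK1, was at 18.7, 15.8 and 19.5 TPM in the BMH-21 libraries, against 19.6, 17.1 and 15.7 TPM in the controls. The ranges of the groups covered each other almost entirely. Its log2 change was 0.04 ± 0.13 (SE, interval -0.27 to 0.35, limma adjusted p = 0.821) on the deposited scale, against -0.14 with median-of-ratios scaling. The interval leaves room for a change of either sign, and lies below the intervals of BTG1, BTG2 and TOB1.

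**Figure D2:**
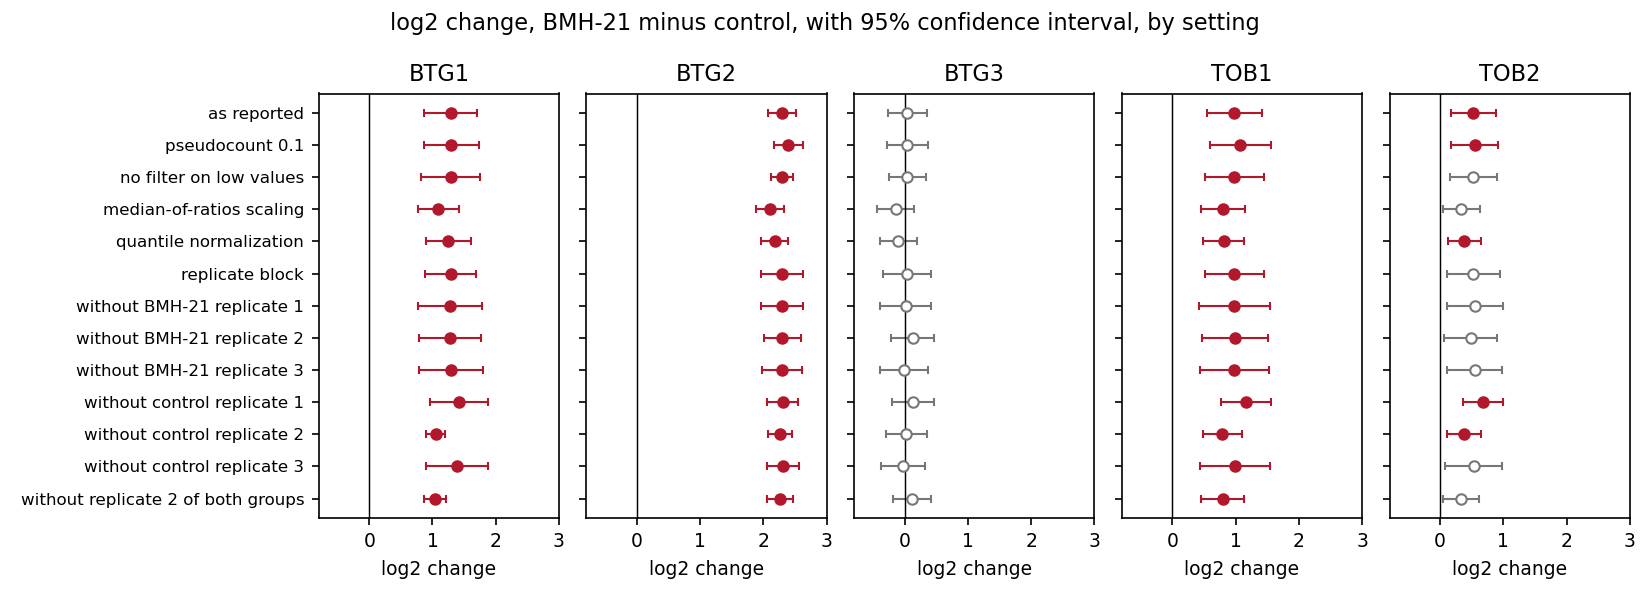
log2 change of each gene (BMH-21 minus control, log2 scale with 95% confidence interval) as reported and under 12 alternative settings; filled red points have an adjusted p under 0.05 and open grey points do not. BTG1, BTG2 and TOB1 are filled in every row, TOB2 is open in 8 of 12 alternatives and BTG3 is open throughout with intervals across 0.

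All tested genes together had a median log2 change of 0.19, and the balance of calls depended on scaling. With TPM as deposited 2908 genes were higher and 1611 lower, with median-of-ratios scaling 1888 were higher and 2367 lower, and with quantile normalization 2316 were higher and 2228 lower. Relative to the median of 0.19, the log2 change was 2.11 for BTG2, 1.10 for BTG1, 0.79 for TOB1, 0.34 for TOB2 and -0.14 for BTG3. In bulk RNA a larger share of cells with a transcript and more of it per cell cannot be told apart.

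**Figure D3:**
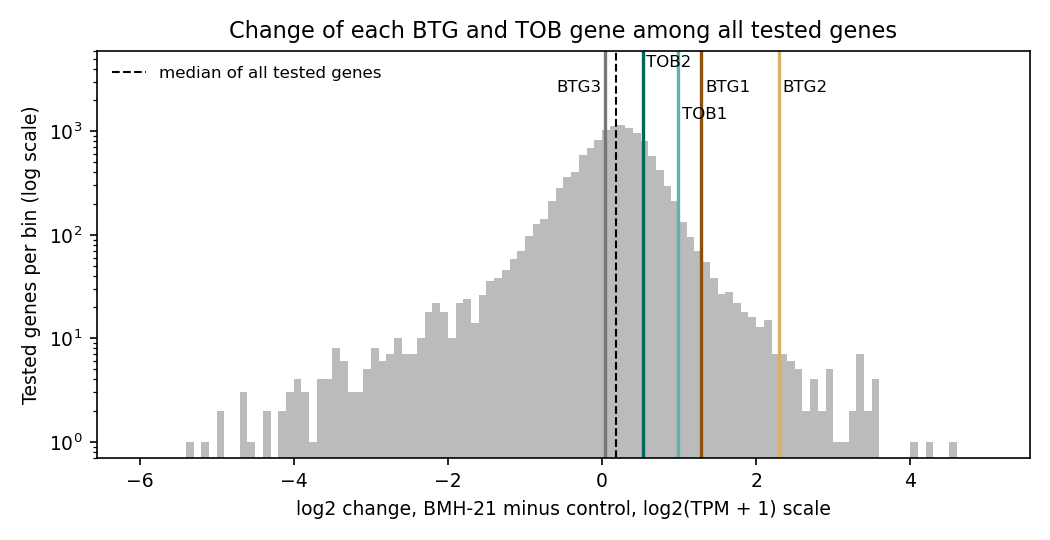
Histogram of the log2 change of 12481 tested genes (log count axis, BMH-21 minus control on the log2(TPM + 1) scale), with a line for each BTG and TOB gene and a dashed line at the median of 0.19. BTG2 at 2.29 and BTG1 at 1.29 lie in the upper tail, and BTG3 at 0.04 lies left of the median.

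The 5 genes differed widely in level, and their order was not the same in the groups. In BMH-21 libraries the order by mean was BTG1 at 183 ± 2.46 TPM, BTG2 at 54.5 ± 0.363, TOB2 at 32.6 ± 1.85, BTG3 at 18.0 ± 1.94 and TOB1 at 15.4 ± 0.11 TPM (SD, n = 3). In control libraries it was BTG1 at 76.4 ± 20.2 TPM, TOB2 at 22.6 ± 4.84, BTG3 at 17.5 ± 2.001, BTG2 at 10.3 ± 0.416 and TOB1 at 7.50 ± 2.17 TPM (SD, n = 3). TOB2 and BTG3 overlapped in the controls, although TOB2 was higher in each of the 3 libraries. The lowest BTG3 value in BMH-21 libraries, 15.8 TPM, was close to the highest TOB1 value there, 15.5 TPM, and in the controls the lowest BTG2 value, 9.86 TPM, was close to the highest TOB1 value, 9.71 TPM. BTG2 thus stood next to the top in BMH-21 libraries and next to the bottom in controls. BTG4, the other human BTG gene, which is known for its role in oocytes, was listed at 0 in all 6 libraries.

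Together the 5 genes summed to 304, 305 and 302 TPM in the BMH-21 libraries, against 157, 103 and 142 TPM in the controls. BTG1 made up most of the sum in every library, with 60.3% ± 0.508 in BMH-21 libraries and 56.4% ± 4.57 in controls (SD, n = 3 each). The BTG2 share was 18.0% ± 0.21 in BMH-21 libraries and 7.89% ± 1.48 in controls, and no library of one group reached the other. The BTG3 share was 5.93% ± 0.663 in BMH-21 libraries and 13.3% ± 2.82 in controls. TOB2 held 10.7% ± 0.574 of the sum in BMH-21 libraries and 16.9% ± 0.964 in controls, and TOB1 held 5.08% ± 0.0611 in BMH-21 libraries and 5.53% ± 0.557 in controls.

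**Figure D4:**
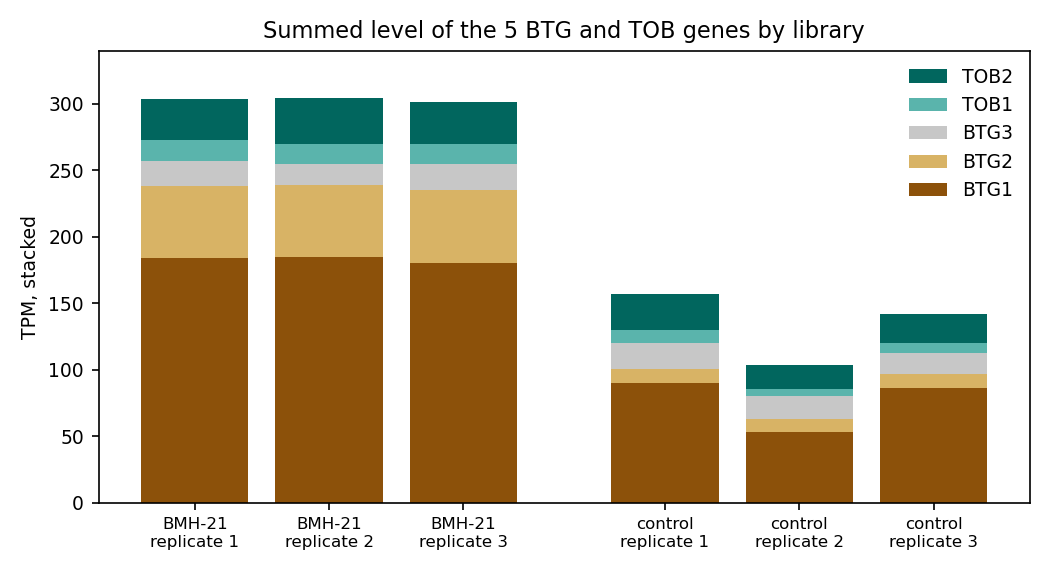
Stacked TPM of the 5 genes in each of the 3 BMH-21 libraries (left) and the 3 control libraries (right), linear axis from 0. The sum is 302 to 305 TPM in BMH-21 libraries and 103 to 157 TPM in controls, and the BTG2 and BTG1 segments account for most of the difference.

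Within the closest pairs of relatives the ratio of levels differed between the groups without overlap, though 3 libraries against 3 cannot give an exact p under 0.1. BTG1 had 3.37, 3.41 and 3.28 times the TPM of BTG2 in BMH-21 libraries, against 8.57, 5.40 and 8.09 times in controls. The log2 ratio of BTG1 over BTG2, with 1 TPM added to each, averaged 1.73 ± 0.028 in BMH-21 libraries and 2.74 ± 0.36 in controls (SD, n = 3 each), a difference of -1.01 (two-sided exact permutation p = 0.1, adjusted over 2 pairs 0.1). TOB1 had 0.493, 0.441 and 0.490 times the TPM of TOB2 in BMH-21 libraries, against 0.352, 0.301 and 0.331 times in controls. The log2 ratio of TOB1 over TOB2 averaged -1.03 ± 0.087 in BMH-21 libraries and -1.49 ± 0.076 in controls (SD, n = 3 each), a difference of 0.46 (two-sided exact permutation p = 0.1, adjusted over 2 pairs 0.1). Both differences were larger than the spread between libraries, and neither group overlapped the other, but the design gives no smaller p than 0.1.

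Likeness to other genes was measured as the root mean square difference of log2(TPM + 1) values over the 6 libraries after centring each gene on its mean, among tested genes with a mean of at least 5 TPM. Nearest to BTG2 were C1QTNF1, a secreted C1q/TNF-related protein (0.076), CYFIP2, a subunit of the actin-regulating WAVE complex (0.082), and LEMD1 (0.105). C1QTNF1 was at a mean of 17.5 TPM after BMH-21 and 2.86 TPM in controls, and CYFIP2 at 67.5 TPM after BMH-21 and 11.9 TPM in controls. Nearest to BTG1 were C10orf90, AHRR, the repressor of the aryl hydrocarbon receptor, and CSF1, a macrophage growth factor, at 0.067 to 0.068. The genes nearest to TOB1 were LINC02434 (0.030), the aminopeptidase NPEPPS (0.048) and CCND1, which encodes cyclin D1 (0.052). ANKFY1, the LKB1 partner STRADA and the folate transporter SLC46A1 were nearest to TOB2 (0.032 to 0.043), and the SIN3 complex subunit SINHCAF, the nucleosome-binding protein HMGN1 and CNBP were nearest to BTG3 (0.028 to 0.044). Within the family BTG1 and TOB1 were closest to each other, at 0.180, and BTG2 and BTG3 farthest apart, at 1.13. With quantile normalization only 4 of these 15 nearest genes were found again, so the names depend on scaling.

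Of the CCR4-NOT complex that the family recruits, 11 of 12 listed genes were tested, and 3 rose and 1 fell. These 4 calls among 11 genes are a share near the 36.2% of all tested genes. The median log2 change of the list was 0.26, against 0.19 for all tested genes, and CNOT6L did not reach the filter. CNOT11, a subunit of the amino-terminal module, rose, with 30.0, 29.5 and 28.9 TPM in BMH-21 libraries, against 20.7, 17.8 and 20.7 TPM in controls (log2 change 0.56 ± 0.11, limma adjusted p = 0.00514). CNOT9 fell, with 27.0, 28.3 and 25.3 TPM in BMH-21 libraries, against 37.6, 36.5 and 36.4 TPM in controls (log2 change -0.44 ± 0.09, limma adjusted p = 0.00857). That call was lost without BMH-21 replicate 3 (adjusted p = 0.0507). CNOT3, the subunit with the highest mean over the 6 libraries though below CNOT9 in the controls, was at 45.6 ± 9.29 TPM in BMH-21 libraries and 32.2 ± 10.5 TPM in controls (limma adjusted p = 0.133). CNOT7 and CNOT8, the deadenylases that the family binds, were named after their values were seen. CNOT7 rose to 31.7 ± 1.86 TPM after BMH-21, against 25.0 ± 0.823 TPM in controls (log2 change 0.33, limma adjusted p = 0.0323), but not with median-of-ratios scaling (adjusted p = 0.332), nor without replicate 1 or 3 of either group (adjusted p from 0.0539 to 0.139). CNOT8 was at 21.8 ± 1.98 TPM in BMH-21 libraries and 21.0 ± 2.62 TPM in controls (limma adjusted p = 0.759). With median-of-ratios scaling 1 member of the list was higher, against 3 with TPM as deposited.

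Among 28 tested genes of 31 for poly(A) tails and mRNA decay, 4 rose and none fell. Of all tested genes 23.3% were called as higher and 12.9% as lower. The median log2 change of this list was 0.34. XRN1, CPEB2 and CPEB3 did not reach the filter. DCP1B, a decapping cofactor, rose most, with 12.5, 11.7 and 12.3 TPM in BMH-21 libraries, against 5.19, 3.74 and 4.99 TPM in controls (log2 change 1.23 ± 0.15, limma adjusted p = 0.000616). PABPC1, the poly(A)-binding protein gene and the highest of the list, was at 472, 524 and 448 TPM in BMH-21 libraries, against 571, 260 and 482 TPM in controls (limma adjusted p = 0.543). Its lowest value was again in control replicate 2. The other genes that rose were CPEB4, NOCT and EDC4, and the calls of NOCT and EDC4 were lost with median-of-ratios scaling (adjusted p = 0.0656 and 0.152), where 2 members were higher and 1 lower. Leaving out BMH-21 replicate 1, 2 or 3 also ended both calls (adjusted p of 0.0522 to 0.0999), and that of EDC4 without control replicate 2 or 3 (adjusted p = 0.0561 and 0.0528).

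Known partners and regulators of the family moved in both directions. Of 11 tested genes 1 rose and 4 fell, where 23.3% of all tested genes were called as higher and 12.9% as lower. The median log2 change of this list was 0.11, against 0.19 for all tested genes. SMAD5, which transmits bone morphogenetic protein signals that TOB proteins restrain in mice, rose to 12.6 ± 2.02 TPM after BMH-21, against 6.70 ± 1.67 TPM in controls (log2 change 0.83 ± 0.19, limma adjusted p = 0.0121). That call was lost without BMH-21 replicate 3 (adjusted p = 0.052). E2F1, the BTG3 partner that drives genes of S phase, fell to 2.28, 1.52 and 0.88 TPM in BMH-21 libraries, against 39.1, 33.7 and 41.7 TPM in controls (log2 change -3.97 ± 0.21, limma adjusted p = 1.1e-05). PRMT1, an arginine methyltransferase that BTG1 and BTG2 bind, was the highest of the list and fell to 324, 321 and 321 TPM in BMH-21 libraries, against 428, 504 and 510 TPM in controls (log2 change -0.57 ± 0.09, limma adjusted p = 0.00222). CHEK1 fell as well (limma adjusted p = 0.000749). HOXB9, a homeobox factor that BTG1 and BTG2 bind, was the remaining call (log2 change -0.73, limma adjusted p = 0.0184), and lost it without replicate 1 or 3 of either group (adjusted p from 0.0514 to 0.0669).

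**Figure D5:**
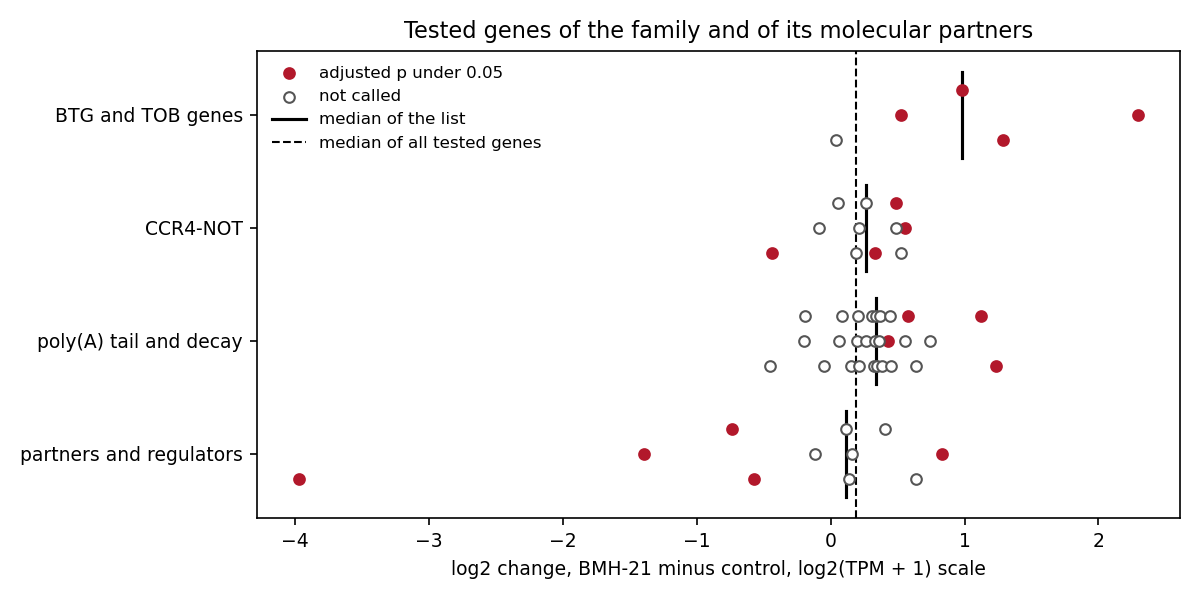
log2 change (BMH-21 minus control, log2(TPM + 1) scale) of each tested gene in the family and in 3 lists of related genes; filled points have an adjusted p under 0.05, a short line marks each median and the dashed line the median of all tested genes. The medians of the CCR4-NOT and poly(A) tail lists are 0.26 and 0.34, against 0.19 for all tested genes. E2F1 at -3.97 is the lowest point.

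Some transcripts share sequence or position with members. BTG1 overlaps the long non-coding gene LINC01619 on its own strand over 2637 bases and an antisense gene over 325 bases, BTG3 overlaps BTG3-AS1 over 1204 bases and TOB1 overlaps TOB1-AS1 over 1300 bases (GENCODE release 29). The sources used here do not say whether the libraries keep the strand, so reads from an overlap may be counted for either gene. LINC01619 was at no more than 0.303 TPM in any library and TOB1-AS1 between 1.14 and 1.74 TPM, both below the member they overlap. BTG3-AS1 was at 2.70, 2.42 and 1.82 TPM in BMH-21 libraries, against 1.56, 0.854 and 1.20 TPM in controls (log2 change 0.59, limma adjusted p = 0.0368), a call lost under 9 of 12 alternatives.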

How the data were processed

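RNA of 6 A375 libraries, 3 given BMH-21 and 3 control, was sequenced. Per the labels' protocols, ribosomal RNA was depleted and cDNA was primed with random hexamers, while the labels name the molecule as polyadenylated RNA. The TPM values were deposited by the authors in a single table. The submitters' processing notes name STAR, Salmon and GRCh38, with no versions, and the annotation is not stated. TPM keeps no depth, so no counting interval is given.

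From the deposited TPM, values were analysed as log2(TPM + 1) for genes with a mean of at least 1 TPM. limma 3.58.1 in R 4.3.3 was used with a trended empirical Bayes variance, two-sided tests and Benjamini-Hochberg adjustment over 12481 genes. A pseudocount shrinks changes of low genes. Size factors were the median ratio to the geometric mean over genes above 0 in all libraries. The ratios of relatives were tested by exact permutation (scipy 1.17.1). The members, lists and tests were chosen with earlier results of these data known. The genes named are the members, for each list the called member with the largest rise, that with the largest fall and the highest member, the 3 nearest genes of each member, and BTG4. Genes that overlap members and pseudogenes of members were added after their values were seen, and others are said to be chosen after their values were seen or are the few genes behind a count. A gene of the partner list is not reported here, while counts include it. Alternatives were a pseudocount of 0.1, no filter, 2 other scalings, a replicate block and leaving out libraries.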

Additional observations from a re-analysis of the deposited data

How the results depend on the processing

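BTG1, BTG2 and TOB1 kept their direction and their calls under the 12 alternatives run, with log2 changes of 1.04 to 1.42, 2.11 to 2.39 and 0.79 to 1.16. TOB2 kept its direction and lost its call without a filter on low values (0.53, adjusted p = 0.0645), with median-of-ratios scaling (0.34) and with both libraries numbered 2 left out (0.33, adjusted p = 0.0556), and leaving out a library at a time gave 0.37 to 0.67. BTG3 was never called and its log2 change was -0.14 after median-of-ratios scaling, -0.10 after quantile normalization, and between -0.028 and 0.13 when a library was left out. Deviations of BMH-21 and control libraries of the same number from their group means correlated at -0.04, -0.34 and -0.08 across genes. No library correlated best with its own number. Deviations from a mean of 3 libraries are tied to each other, so these values cannot settle whether the cultures were paired. With a replicate block 3223 genes were called against 4519, the log2 change of TOB2 of 0.53 was no longer called (adjusted p = 0.0673), 1 CCR4-NOT gene was higher and 0 lower (CNOT9 at an adjusted p of 0.0517), and 2 genes of the poly(A) tail list were higher. No block was fitted for the ratios of relatives, since a block cannot move a difference of balanced means such as their -1.01 and 0.46.

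Leaving out a library at a time, 2796 to 4809 genes were called, with 2796 without BMH-21 replicate 1 and 2885 without BMH-21 replicate 3, 1 to 3 CCR4-NOT genes were higher and 0 to 1 lower, 2 to 6 poly(A) tail genes were higher and 0 to 2 lower, and 0 to 2 partners were higher. Median-of-ratios scaling and quantile normalization each gave 1 higher CCR4-NOT gene and 1 lower poly(A) tail gene, and 2 poly(A) tail genes were higher with median-of-ratios scaling and without a filter. With both libraries numbered 2 left out, 8 poly(A) tail genes were higher and 3 lower, and 2 partners were higher. The log2 change of CNOT8 was -0.13 and -0.090 with these 2 scalings and -0.047 without control replicate 2. That of PABPC1 ran from -0.13 without control replicate 2 to 0.44 without control replicate 1, and was -0.19 with both libraries numbered 2 left out. The change of TOB1-AS1 was -0.0094 with quantile normalization. The search for nearest genes was repeated after the data were seen and found 12 of the 15 again after median-of-ratios scaling, 4 after quantile normalization and 10 with a pseudocount of 0.1. The causes were not tested. Depth is unknown, so low genes such as TOB2P1 carry an error that 3 libraries a group measure poorly.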

Other observations

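TOB2P1, annotated as a processed pseudogene of TOB2 on chromosome 6 (28217643 to 28218634, GRCh38), was chosen after its values were seen. It was at 2.93, 2.84 and 3.79 TPM in BMH-21 libraries, against 1.14, 0.641 and 1.32 TPM in controls, and was higher in each of the 3 BMH-21 libraries than in any control (log2 change 1.05 ± 0.19, SE, limma adjusted p = 0.00364). The call was kept under all 12 alternatives, unlike that of TOB2. Reads of a processed pseudogene and its parent can be exchanged where their sequences are alike, which was not tested. BTG1P1, the pseudogene of BTG1, was listed at 0 in all 6 libraries.

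TOB1 and BTG2 varied little between BMH-21 libraries. Their SDs on the log2(TPM + 1) scale were 0.0096 and 0.0094, lower than in all but 0.705% and 0.689% of tested genes, and that of BTG1, 0.019, was lower than in all but 2.61%. In controls the SD of BTG1 was 0.41 and that of TOB1 0.37, above 89.1% and 85.3% of tested genes, and that of BTG2, 0.053, was above 5.22%. An SD over 3 libraries is itself imprecise.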
